A study of Mus musculus with 2 samples.

Results

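The 10 genes described here control how heart cells take up glucose and how far they burn it: Slc2a1, Slc2a4, Hk1, Hk2, Pfkm, Pfkfb2, Ldha, Ldhb, Pdk2 and Pdk4. They were chosen by name, and their members are all peaks of open chromatin that the authors' annotation assigned to the Ensembl identifiers of these genes, 43 of 58076 peaks and 10 of 24480 identifiers. The table gives identifiers without symbols, so each gene was found by its position on GRCm38, and all 10 were placed. Open chromatin was measured by ATAC-seq, in which Tn5 transposase cuts and tags accessible DNA, in nuclei extracted from heart. One library came from mice with a cardiac-specific deletion of Ythdc1 (Ythdc1 CKO) and the other from Ythdc1flox/flox mice, the floxed control. Both groups were kept on normal chow until 15 days of age, and Ythdc1 encodes a nuclear protein that binds methylated adenosines in RNA. Which promoter drives the deletion, how many animals each library holds and their sex are not stated in the labels.

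Glucose enters heart muscle through a basal transporter, encoded by Slc2a1, and an insulin-responsive one, encoded by Slc2a4. Hexokinases trap it as glucose 6-phosphate, phosphofructokinase commits it to glycolysis, and lactate dehydrogenase interconverts pyruvate and lactate. Pyruvate dehydrogenase kinases switch off the entry of pyruvate into mitochondrial oxidation, which spares glucose when fatty acids are burned. The neonatal mouse heart moves from glycolysis towards fatty acid oxidation over the first weeks after birth.

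With 1 library per genotype there is no spread between animals to set a difference against, and no p-value is given. Every ratio is that of CPM (counts scaled to the library's total over all peaks), Ythdc1 CKO over Ythdc1flox/flox, with an exact (Clopper-Pearson) 95% interval that covers counting error only. At Ythdc1 itself the assigned peak held 314 counts in Ythdc1 CKO and 358 in Ythdc1flox/flox, a ratio of 0.916 (0.785 to 1.07), and a peak of open chromatin does not show whether the gene's exons were deleted. The libraries held 6466537 counts in peaks for Ythdc1 CKO and 6755590 for Ythdc1flox/flox. On the RPM scale, the authors' own, which divides by a larger total per library, log2 ratios are lower by about 0.17 (the shift of the median over all peaks), so a direction here means relative to the total over peaks. Promoter peaks, within 1 kb of an annotated transcription start, were seen at all 5 placed cardiomyocyte markers (Myh6, Tnnt2, Actn2, Ryr2, Tnni3), with summed levels of 279 CPM in Ythdc1 CKO and 294 CPM in Ythdc1flox/flox. These 5 promoters parted, with intervals below 1 at Tnni3 (0.699, 0.600 to 0.813) and Ryr2 (0.734, 0.578 to 0.930) and ratios of 1.14 at Tnnt2, 1.15 at Actn2 and 0.991 at Myh6. Summed over all peaks of a gene, Ryr2 was at 0.754 (0.705 to 0.806), Myh6 at 0.856 (0.787 to 0.931) and Actn2 at 0.876 (0.818 to 0.939). Tnni3 has just the 1 peak, and Tnnt2 was above 1 (1.14, 1.07 to 1.21). Of other cells, 5 of 5 endothelial markers summed to 133 CPM in Ythdc1 CKO and 111 in Ythdc1flox/flox. Of these 5, 4 lay above a log2 ratio of 0, with an interval above 1 at Tie1 alone (1.42, 1.18 to 1.71). Kdr was below 0 (0.956, 0.778 to 1.17). Summed over all peaks of a gene, the endothelial ratios were 1.12 at Kdr and Pecam1, 1.11 at Cdh5, 1.05 at Tek and 1.42 at Tie1. The intervals of the sums of Cdh5 (0.991 to 1.25) and Tek (0.957 to 1.15) included 1. The promoters of the 5 fibroblast markers summed to 92.6 CPM in Ythdc1 CKO and 80.2 in Ythdc1flox/flox, but 3 of them were below 0 and their median log2 ratio was -0.14, with 370 counts in Ythdc1 CKO and 272 in Ythdc1flox/flox at Pdgfra alone. Over all peaks of a gene, these markers were at 1.36 (Pdgfra), 1.37 (Tcf21), 1.2 (Dcn), 1.05 (Col1a1) and 0.764 (Postn). Promoter peaks of 3 of 4 mural markers summed to 47.0 CPM in Ythdc1 CKO and 35.7 in Ythdc1flox/flox. Pdgfrb alone held 165 counts in Ythdc1 CKO and 117 in Ythdc1flox/flox, and the promoter intervals of Acta2 and Myh11 included 1. Over all peaks of a gene, Pdgfrb was at 1.21 (0.992 to 1.48). The others were below 1, at 0.738 (Acta2, 0.599 to 0.907), 0.866 (Myh11, 0.705 to 1.06) and 0.930 (Rgs5, 0.656 to 1.32). Of the placed markers, 1 of 3 myeloid and 1 of 1 erythroid genes had a promoter peak, and none of 3 skeletal muscle or 2 adipocyte genes had one. The part of these cell types in the values below was not tested, and in tissue a change in the number of cells of a type and a change per cell cannot be told apart.

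Across the 10 genes the peaks did not differ in one direction. Pdk4 had all 7 of its peaks above a log2 ratio of 0 and Slc2a1 all 4 (2 of 4 on the RPM scale), whereas Hk2 had all 4 of its peaks below 0 and Slc2a4 both of its 2. Of the 43 peaks, 25 lay above 0 (45.9% of all peaks did, and 15 of the 43 on the RPM scale) and 18 below, and their median log2 ratio was 0.04, beside -0.05 over all peaks. Without Pdk4 the median was -0.07, with 18 peaks above 0 and 18 below. Just 1 peak was at least 2-fold higher in Ythdc1 CKO (2.33% of 43, against 6.09% of all peaks) and 3 were at least 2-fold lower (6.98%, against 8.96%). Over all peaks, the RPM scale gave shares of 4.01% higher and 12.3% lower. The counting interval lay above a ratio of 1 in 10 member peaks (23.3%, against 17.7% of all peaks) and below 1 in 11 (25.6%, against 21.7%). On the RPM scale these counts were 5 above (10.7% of all peaks) and 14 below (33.6%). Of the 14 promoter peaks none was 2-fold higher or lower (2.7% and 2.87% of all promoter peaks), so the 4 differences of that size lay among the 29 others (7.79% of such peaks higher and 12.0% lower). These shares are close to the background, and what follows describes single genes and not a shift of the group. The authors called 27 of the peaks in both libraries (62.8%, against 55.0% of all peaks). They called 12 in Ythdc1flox/flox alone (27.9%, against 29.1%) and 4 in Ythdc1 CKO alone (9.3%, against 15.9%). All 4 of the 2-fold peaks were called in 1 library alone. Over all peaks, just 272 of 3537 such higher peaks and 327 of 5201 lower ones were called in both. A call in 1 library alone favours a high count there.

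**Figure D1:**
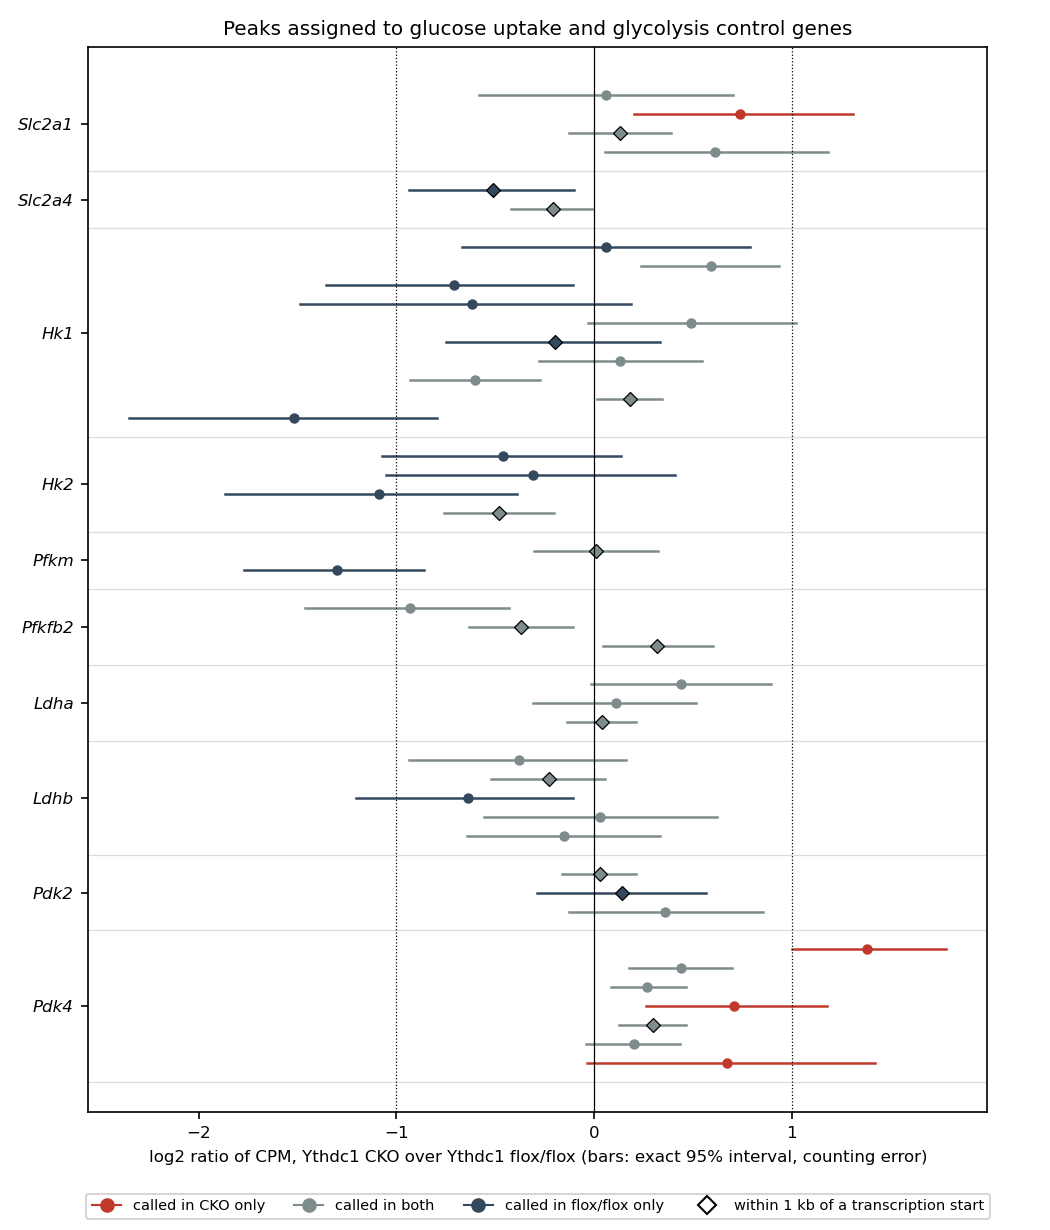
Log2 ratio of CPM, Ythdc1 CKO over Ythdc1flox/flox, at each of the 43 peaks (points) with exact 95% intervals for counting error (bars), grouped by gene and ordered by genome position within a gene; colours give the library in which the peak was called, diamonds mark peaks within 1 kb of a transcription start, and dotted lines mark 2-fold. The 7 Pdk4 peaks lie right of 0 and the 4 Hk2 peaks left of 0, while Hk1 has 5 on each side.

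Of the transporters, Slc2a1 (ENSMUSG00000028645, chromosome 4) was higher in Ythdc1 CKO at 2 peaks around the gene and differed less at its promoter. The promoter peak from 119108514 to 119109444 held 258 counts in Ythdc1 CKO and 246 in Ythdc1flox/flox, a ratio of 1.10 (0.916 to 1.31). The peak 2667 bp upstream of the start held 74 counts in Ythdc1 CKO and 46 in Ythdc1flox/flox (1.68, 1.15 to 2.48) and was called in Ythdc1 CKO alone. A peak from 119115801 to 119116108, annotated to a 5' untranslated exon, held 69 counts in Ythdc1 CKO and 47 in Ythdc1flox/flox (1.53, 1.04 to 2.27), with an interval that included 1 on the RPM scale (0.926 to 2.02). The most distant, 12025 bp upstream, held 43 counts in each library. Over its 4 peaks Slc2a1 had 444 counts in Ythdc1 CKO and 382 in Ythdc1flox/flox, a ratio of 1.21 (1.06 to 1.40). The interval included 1 over the 3 peaks called in both libraries (1.15, 0.990 to 1.34) and on the RPM scale (1.08, 0.938 to 1.24). Of identifiers with 4 peaks, 7.47% had all of them above 0. Of the 4 Slc2a1 peaks, 2 were below 0 on the RPM scale.

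A further 3 peaks in the body of Slc2a1 carry the identifier of a small gene inside it and so do not count as members. The strongest of them, in intron 2 from 119121277 to 119121567, held 79 counts in Ythdc1 CKO and 37 in Ythdc1flox/flox, a ratio of 2.23 (1.49 to 3.39). Its neighbour from 119124933 held 61 counts in Ythdc1 CKO and 35 in Ythdc1flox/flox (1.82, 1.18 to 2.84). Both were called in Ythdc1 CKO alone. The remaining peak, from 119127240, held 53 counts in Ythdc1 CKO and 51 in Ythdc1flox/flox (1.09, 0.725 to 1.63) and was called in Ythdc1flox/flox alone. With these 3 peaks added, a choice made after seeing the data, all 7 lay above 0 (as in 3.76% of identifiers with 7 peaks), though 3 of the 7 were below 0 on the RPM scale. The summed ratio was 1.32 (1.17 to 1.48), and 1.17 (1.04 to 1.32) on the RPM scale.

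Slc2a4 (ENSMUSG00000018566, chromosome 11), the gene of the transporter that insulin and contraction bring to the surface of muscle and fat cells, had lower counts. Its strongest peak, over the promoter from 69947974 to 69949226, held 360 counts in Ythdc1 CKO and 436 in Ythdc1flox/flox, a ratio of 0.863 (0.748 to 0.994). The adjoining peak from 69947424 to 69947875 held 83 counts in Ythdc1 CKO and 124 in Ythdc1flox/flox (0.699, 0.523 to 0.931) and was called in Ythdc1flox/flox alone. The summed ratio was 0.826 (0.728 to 0.938), opposite in direction to that of Slc2a1. Of identifiers with 2 peaks, 32.3% had both below 0.

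The hexokinases differed from each other at their promoters. Hk1 (ENSMUSG00000037012, chromosome 10), the widely expressed isoform, had 628 counts in Ythdc1 CKO and 580 in Ythdc1flox/flox at its promoter (62339833 to 62340759), a ratio of 1.13 (1.01 to 1.27). Hk2 (ENSMUSG00000000628, chromosome 6), the insulin-regulated isoform of adult muscle, had 182 counts in Ythdc1 CKO and 265 in Ythdc1flox/flox at its promoter (82774295 to 82774777), a ratio of 0.717 (0.591 to 0.870). The intervals of these promoter ratios do not overlap. On the RPM scale the interval of the Hk1 promoter included 1 (0.895 to 1.13, log2 ratio 0.01), and that of Hk2 was below 1 (0.524 to 0.772). The 250 bases upstream of the RefSeq start under each of these peaks are shown because the intervals of these paralogs did not overlap. They are from RefSeq (GRCm38.p6), 5′ to 3′ on the gene's strand, with capitals for matches to any of 9 motifs searched on both strands (listed with the pyruvate dehydrogenase kinases).
Hk1, chr10:62340422-62340671, minus strand: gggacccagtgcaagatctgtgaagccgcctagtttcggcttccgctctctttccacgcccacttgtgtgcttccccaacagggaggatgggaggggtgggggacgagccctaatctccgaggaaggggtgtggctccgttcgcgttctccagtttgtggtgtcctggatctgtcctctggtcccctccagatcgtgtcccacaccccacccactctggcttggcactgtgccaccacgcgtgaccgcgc
Hk2, chr6:82774455-82774704, minus strand: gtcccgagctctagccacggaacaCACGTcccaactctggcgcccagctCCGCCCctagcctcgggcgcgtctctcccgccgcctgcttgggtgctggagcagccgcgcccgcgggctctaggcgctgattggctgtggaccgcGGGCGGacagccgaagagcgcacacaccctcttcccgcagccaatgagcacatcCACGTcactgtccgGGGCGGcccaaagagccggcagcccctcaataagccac
Over the 300 bases from 250 before to 50 after the start, the Hk2 promoter was 67.3% G or C with 25 CpG dinucleotides and the Hk1 promoter 63.3% with 20, against medians of 52.7% and 7 over 32817 RefSeq promoters. Hk2 held 3 GC boxes (GGGCGG, in 35.6% of those promoters) and 2 ACGTG cores, the letters bound by hypoxia-inducible factor (19.6%). Hk1 held 2 ACGTG cores, both just after the start and so outside the run printed.

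Away from the promoter, the Hk2 gene was lower throughout. The intron 7 peak from 82741182 to 82741413 held 24 counts in Ythdc1 CKO and 54 in Ythdc1flox/flox, a ratio of 0.464 (0.274 to 0.764), and was called in Ythdc1flox/flox alone. A second peak in that intron held 30 counts in Ythdc1 CKO and 39 in Ythdc1flox/flox (0.804, 0.482 to 1.33), and the peak beyond the gene's end 41 in Ythdc1 CKO and 59 in Ythdc1flox/flox (0.726, 0.475 to 1.10). Both intervals include 1, and both peaks were called in Ythdc1flox/flox alone. A further 5 peaks inside Hk2 carry the identifier of another gene that lies within it, and all 5 were below 0 too, with ratios of 0.644 to 0.932. Of these, the peak from 82763874 to 82764409 held 104 counts in Ythdc1 CKO and 133 in Ythdc1flox/flox (0.817, 0.626 to 1.06). The peak from 82756298 to 82756509 held 58 in Ythdc1 CKO and 65 in Ythdc1flox/flox (0.932, 0.643 to 1.35) and was called in Ythdc1 CKO alone. That from 82760775 to 82761139 held 74 in Ythdc1 CKO and 120 in Ythdc1flox/flox (0.644, 0.476 to 0.868) and was called in Ythdc1flox/flox alone. Over all 9 peaks the ratio was 0.728 (0.658 to 0.805), and over the 4 members 0.694 (0.594 to 0.810). Of identifiers with 4 peaks, 11.9% had all of them below 0, and Hk2 did so under each scaling tried.

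The 10 Hk1 peaks were split, 5 above and 5 below 0 (3 and 7 on the RPM scale). The lowest, from 62356424 to 62356760, lay upstream of the main promoter and 1602 bp inside the start of a longer transcript. It held 20 counts in Ythdc1 CKO and 61 in Ythdc1flox/flox, a ratio of 0.343 (0.196 to 0.576), the largest difference among the 43 peaks, and was called in Ythdc1flox/flox alone. In intron 1 the peak from 62332399 to 62332895, called in both libraries, held 127 counts in Ythdc1 CKO and 201 in Ythdc1flox/flox (0.660, 0.524 to 0.828). In intron 3 the peak from 62300050 to 62300805, also called in both, held 174 counts in Ythdc1 CKO and 121 in Ythdc1flox/flox (1.5, 1.18 to 1.91). A peak in intron 2 from 62306496 held 36 in Ythdc1 CKO and 62 in Ythdc1flox/flox (0.607, 0.391 to 0.929) and was called in Ythdc1flox/flox alone. The remaining 5 Hk1 peaks had intervals that include 1. Summed over the gene these differences cancelled, with 1272 counts in Ythdc1 CKO and 1312 in Ythdc1flox/flox, a ratio of 1.01 (0.937 to 1.09). This sum was 0.899 on the RPM scale (0.832 to 0.972).

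**Figure D2:**
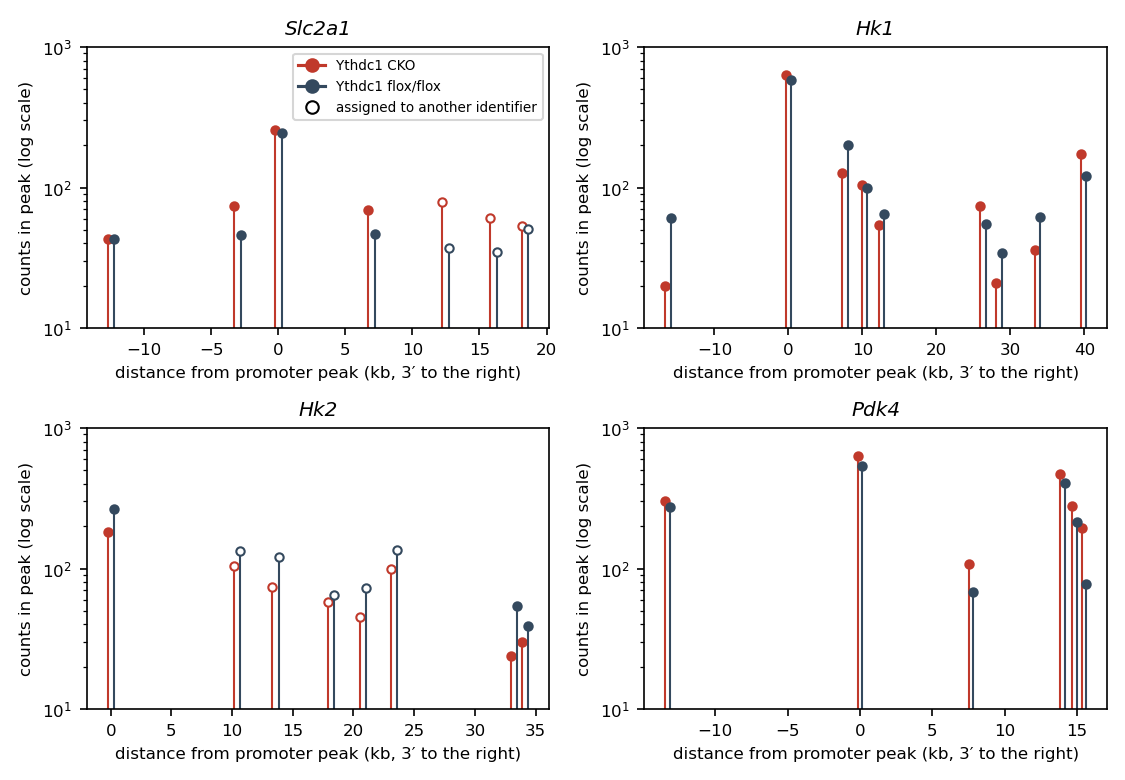
Counts in each peak (log axis) against the distance of its centre from the gene's strongest promoter peak in kb, with transcription running to the right; red is Ythdc1 CKO and dark blue Ythdc1flox/flox, drawn side by side, and open circles are peaks inside the gene that the table assigns to another identifier. Red stands above dark blue or level with it at all Slc2a1 and Pdk4 peaks shown and below it at all Hk2 peaks shown. The farthest peak of Hk1, of Hk2 and of Pdk4 lies outside the window.

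At the phosphofructokinase step, Pfkm (ENSMUSG00000033065, chromosome 15), the muscle subunit of the enzyme, had a level promoter and fewer counts at an intronic peak in Ythdc1 CKO. The promoter peak (98108321 to 98108947) held 167 counts in Ythdc1 CKO and 173 in Ythdc1flox/flox, a ratio of 1.01 (0.810 to 1.25). The peak from 98115019 to 98115416, in an intron 6553 bp inside the gene, held 58 counts in Ythdc1 CKO and 150 in Ythdc1flox/flox, a ratio of 0.404 (0.293 to 0.550). It was called in Ythdc1flox/flox alone. The summed ratio of 0.728 (0.611 to 0.865) rests on that peak. The promoter was below 0 too on the RPM scale, at -0.16. A peak in intron 20, assigned to another identifier, held 61 counts in Ythdc1 CKO and 95 in Ythdc1flox/flox (0.671, 0.478 to 0.935) and was called in both libraries. A stronger peak inside the RefSeq span of Pfkm, from 98092898 to 98093784 and at the promoter of a different identifier, was level. It held 249 counts in Ythdc1 CKO and 258 in Ythdc1flox/flox (1.01, 0.844 to 1.2). With both added, a choice made after seeing the data, the summed ratio was 0.827 (0.737 to 0.927).

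Pfkfb2 (ENSMUSG00000026409, chromosome 1) encodes the heart isoform of the enzyme that makes and breaks down fructose 2,6-bisphosphate, the activator of phosphofructokinase. Its 3 peaks were all called in both libraries, and its 2 promoter peaks went in opposite directions. The stronger (130715513 to 130716194) held 209 counts in Ythdc1 CKO and 282 in Ythdc1flox/flox, a ratio of 0.774 (0.644 to 0.929). The upstream promoter peak (130717152 to 130717785), annotated to another transcript, held 236 counts in Ythdc1 CKO and 197 in Ythdc1flox/flox, a ratio of 1.25 (1.03 to 1.52), whose interval included 1 on the RPM scale (0.915 to 1.35). With both promoter peaks summed the log2 ratio was -0.04. The third peak, annotated to a 3' untranslated region (130699885 to 130700290), held 49 counts in Ythdc1 CKO and 98 in Ythdc1flox/flox, a ratio of 0.522 (0.363 to 0.743). Over the 3 peaks the ratio was 0.894 (0.792 to 1.01), and 0.794 (0.703 to 0.897) on the RPM scale.

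Of the lactate dehydrogenase genes, Ldha differed little and Ldhb was lower in Ythdc1 CKO. Ldha (ENSMUSG00000063229, chromosome 7), the subunit that favours lactate formation, had 521 counts in Ythdc1 CKO and 530 in Ythdc1flox/flox at its promoter (46845232 to 46847168), a ratio of 1.03 (0.908 to 1.16). Its other 2 peaks, upstream, had ratios of 1.08 and 1.36 with intervals that include 1. Ldhb (ENSMUSG00000030246, chromosome 6), the subunit that prevails in the adult heart, had 178 counts in Ythdc1 CKO and 218 in Ythdc1flox/flox at its promoter (142507786 to 142508340), a ratio of 0.853 (0.696 to 1.04), and 0.757 (0.618 to 0.927) on the RPM scale. Of its other 4 peaks, all in intergenic DNA, the one 13779 bp upstream held 47 counts in Ythdc1 CKO and 77 in Ythdc1flox/flox (0.638, 0.434 to 0.928). It was called in Ythdc1flox/flox alone, and the other 3 had intervals that include 1. Summed over the gene, Ldha came to 1.07 (0.962 to 1.19) and Ldhb to 0.833 (0.728 to 0.953). All 3 Ldha peaks were above 0 (13.3% of identifiers with 3 peaks), but 2 were below 0 on the RPM scale, and 4 of the 5 Ldhb peaks were below 0. Over all 10 genes the interval of the summed ratio was below 1 in 4 (Slc2a4, Hk2, Pfkm and Ldhb), against 23.6% of all identifiers. Over peaks called in both libraries that of Pfkm (0.810 to 1.25) and that of Ldhb (0.751 to 1.005) included 1.

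Pdk4 was the member whose peaks were most uniformly higher in Ythdc1 CKO. Pdk4 (ENSMUSG00000019577, chromosome 6), the pyruvate dehydrogenase kinase that heart and skeletal muscle induce in fasting, had 2029 counts in Ythdc1 CKO and 1608 in Ythdc1flox/flox over its 7 peaks, a ratio of 1.32 (1.23 to 1.41). The interval of the summed ratio was above 1 at Pdk4 and Slc2a1, 2 of 10 genes, against 16.8% of all identifiers. For Pdk4 it was also above 1 on the RPM scale (1.17, 1.10 to 1.25), and for Slc2a1 it was not. All of the 7 peaks lay above 0, also on the RPM scale, where the lowest was 0.03. Among identifiers with 7 peaks, 3.76% had all of them above 0. The promoter peak (5495958 to 5496877) held 628 counts in Ythdc1 CKO and 533 in Ythdc1flox/flox, a ratio of 1.23 (1.09 to 1.38), the highest among the strongest promoter peaks of the 10 genes. On the RPM scale it was 1.09 (0.972 to 1.23), an interval that includes 1. Downstream of the gene lay 3 neighbouring peaks, and Ythdc1 CKO was higher at each. The farthest, from 5480777 to 5481110, held 195 counts in Ythdc1 CKO and 78 in Ythdc1flox/flox, a ratio of 2.61 (2.0 to 3.44), and was called in Ythdc1 CKO alone. The middle one held 280 counts in Ythdc1 CKO and 216 in Ythdc1flox/flox (1.35, 1.13 to 1.62), and the nearest 473 in Ythdc1 CKO and 409 in Ythdc1flox/flox (1.21, 1.06 to 1.38). These 3 intervals all lie above 1, but that of the nearest included 1 on the RPM scale (0.937 to 1.23). An intron 7 peak (5488605 to 5488865) held 107 in Ythdc1 CKO and 68 in Ythdc1flox/flox (1.64, 1.2 to 2.26) and was called in Ythdc1 CKO alone. The upstream peaks at 12918 bp and 93395 bp had ratios of 1.15 and 1.60 with intervals that include 1, and the farther was called in Ythdc1 CKO alone. Restricted to the 4 peaks called in both libraries, the summed ratio was 1.23 (1.14 to 1.32), and 1.09 (1.01 to 1.17) on the RPM scale.

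Pdk2 (ENSMUSG00000038967, chromosome 11), the kinase isoform expressed in most tissues, was level. Its promoter peak (95040415 to 95041770) held 467 counts in Ythdc1 CKO and 479 in Ythdc1flox/flox, a ratio of 1.02 (0.895 to 1.16). Its second promoter peak held 98 counts in Ythdc1 CKO and 93 in Ythdc1flox/flox (1.10, 0.820 to 1.48), and the third peak, in exon 23 of the neighbouring integrin gene Itga3, 80 in Ythdc1 CKO and 65 in Ythdc1flox/flox (1.29, 0.915 to 1.81). The summed ratio was 1.06 (0.947 to 1.18), whose interval does not overlap that of Pdk4. Of the 3 Pdk2 peaks, 2 were below 0 on the RPM scale. The intervals of the 2 promoter ratios do overlap (0.895 to 1.16 at Pdk2 and 1.09 to 1.38 at Pdk4). So do those of the sums over peaks called in both libraries (0.931 to 1.19 at Pdk2 and 1.14 to 1.32 at Pdk4). The upstream runs of these kinase isoforms are shown as for the hexokinases, since the intervals summed over all peaks did not overlap.
Pdk2, chr11:95041372-95041621, minus strand: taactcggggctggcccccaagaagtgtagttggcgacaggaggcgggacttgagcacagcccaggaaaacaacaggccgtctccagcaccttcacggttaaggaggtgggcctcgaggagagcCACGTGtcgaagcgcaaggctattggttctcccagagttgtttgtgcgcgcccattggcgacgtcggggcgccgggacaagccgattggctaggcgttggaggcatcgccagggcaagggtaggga
Pdk4, chr6:5496279-5496528, minus strand: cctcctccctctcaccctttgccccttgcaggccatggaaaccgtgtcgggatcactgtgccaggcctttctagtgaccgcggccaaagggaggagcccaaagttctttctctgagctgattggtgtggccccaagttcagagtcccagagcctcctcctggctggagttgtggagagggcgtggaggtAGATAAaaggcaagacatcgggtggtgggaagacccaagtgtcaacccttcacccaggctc
In capitals, Pdk2 has a CACGTG E-box, found in 7.15% of all promoters, which holds the ACGTG core on both strands. Pdk4 has an AGATAA match, the letters of the GATA motif (11.2%). RefSeq promoters were matched for 9 of the 10 genes, 17 starts in all, of which 13 lay under a peak. The E-box also occurred at Pfkfb2, Ldha and a Pfkm start with no peak, 4 starts in all. The GC box occurred at 4 of the 17 starts (4 genes), the ACGTG core at 9 (7 genes), and AGATAA at 5 (3 genes). Windows of the same gene can overlap, and a Pfkm AGATAA match was counted at neighbouring starts. The 17 windows held a median of 13 CpG dinucleotides, against 7 over all promoters. No start held TGANTCA (AP-1, 7.81% of all promoters), GTAAACA (forkhead, 3.65%), AAGGTCA (nuclear receptors, 4.72%), the glucocorticoid response element (0.00914%) or the MEF2 element (0.558%) in these 300 bases. These are matches of letters and not measured binding.

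Promoter levels were set side by side per length of peak. Pdk4 (106 CPM per kb in Ythdc1 CKO and 85.8 in Ythdc1flox/flox) and Hk1 (105 in Ythdc1 CKO and 92.6 in Ythdc1flox/flox) were the most accessible. Hk2 had 58.3 CPM per kb in Ythdc1 CKO and 81.2 in Ythdc1flox/flox, close to Hk1 and Pdk4 in Ythdc1flox/flox alone. The other 7 lay between 41.2 (Pfkm) and 53.3 (Pdk2) CPM per kb in Ythdc1 CKO, and between 39.1 (Slc2a1) and 61.2 (Pfkfb2) in Ythdc1flox/flox. Of the 10 strongest promoter peaks none differed 2-fold (background 2.03% higher and 2.29% lower over 14854 identifiers). The interval lay above 1 at Hk1 and Pdk4, 2 of 10 (background 14.1%), and below 1 at Slc2a4, Hk2 and Pfkfb2, 3 of 10 (16.9%). None of the 10 was above 1 on the RPM scale, and 4 were below, the 3 named and Ldhb. With TMM factors, another scaling of the libraries, log2 ratios over all peaks were higher by 0.05. The Slc2a4 interval ended at a log2 ratio of -0.01 as reported, so on that scaling it would include a ratio of 1.

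**Figure D3:**
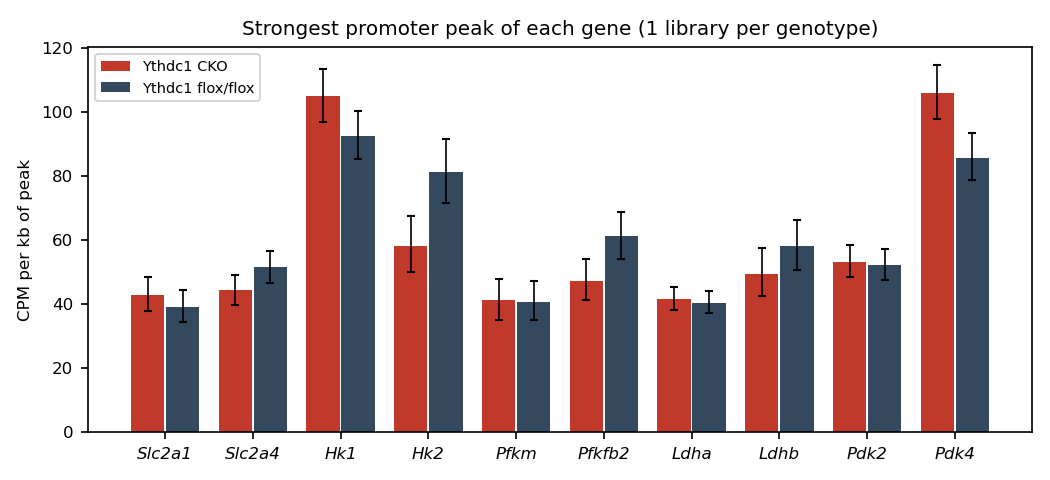
Accessibility of the strongest promoter peak of each gene in CPM per kb of peak, with Ythdc1 CKO left (red) and Ythdc1flox/flox right (dark blue) and bars for the exact 95% Poisson interval of each count, counting error only. Hk1 and Pdk4 stand highest, and Hk2 has the widest gap, with 58.3 in Ythdc1 CKO and 81.2 in Ythdc1flox/flox.

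The rest of the pathway showed no common direction. Of 40 other genes of glycolysis, glucose and lactate transport, glycogen and pyruvate dehydrogenase, 34 were placed and 33 had a promoter peak. Of these promoters 15 lay above 0 and 18 below, none differed 2-fold, and the median log2 ratio was -0.01, beside -0.02 over the strongest promoters of all identifiers. The median was -0.18 on the RPM scale. The interval lay above 1 in 6 (18.2%, against 14.1% of the strongest promoters of all identifiers) and below 1 in 3 (9.09%, against 16.9%). The highest was Slc16a3, the lactate exporter gene, with 268 counts in Ythdc1 CKO and 188 in Ythdc1flox/flox, a ratio of 1.49 (1.23 to 1.80). Slc2a12, a further glucose transporter gene, followed with 105 counts in Ythdc1 CKO and 77 in Ythdc1flox/flox (1.42, 1.05 to 1.94). Pgam1, a phosphoglycerate mutase gene, had a ratio of 1.22 (1.06 to 1.41), and Pfkfb3, a more inducible relative of Pfkfb2, 1.21 (1.06 to 1.39). Intervals on the RPM scale, where ratios are lower, are not given for single genes of this list. That scale shifts all ratios alike, and the lower bound at the Pdk4 promoter went from 1.09 to 0.972. The smaller lower bounds of Slc2a12, Pgam1 and Pfkfb3 therefore fall below 1 there. Pygb, a glycogen phosphorylase gene, was the lowest, with 242 counts in Ythdc1 CKO and 355 in Ythdc1flox/flox (0.712, 0.602 to 0.841). Tbc1d4, which holds the insulin-responsive transporter inside the cell until insulin signals, had 349 in Ythdc1 CKO and 446 in Ythdc1flox/flox (0.817, 0.709 to 0.943).

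For the competing fuel, 21 of 24 genes of fatty acid uptake and oxidation were placed, each with a promoter peak. Their median log2 ratio was 0.03, with 12 above 0, 9 below and none past 2-fold, and it was -0.14 on the RPM scale. The interval lay above 1 in 5 (23.8%, against 14.1%) and below 1 in 1 (4.76%, against 16.9%). Angptl4, an inhibitor of lipoprotein lipase, had 503 counts in Ythdc1 CKO and 312 in Ythdc1flox/flox, a ratio of 1.68 (1.46 to 1.95). Lpl, the lipase itself, had 154 in Ythdc1 CKO and 237 in Ythdc1flox/flox (0.679, 0.551 to 0.835), at a peak called in Ythdc1flox/flox alone. Acacb, whose product makes the malonyl-CoA that restrains fatty acid entry into mitochondria, had 565 in Ythdc1 CKO and 435 in Ythdc1flox/flox (1.36, 1.2 to 1.54), and Hadh, an enzyme of beta-oxidation, 244 in Ythdc1 CKO and 188 in Ythdc1flox/flox (1.36, 1.12 to 1.65). Here too, intervals of single genes are not given on the RPM scale, where ratios are lower.

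**Figure D4:**
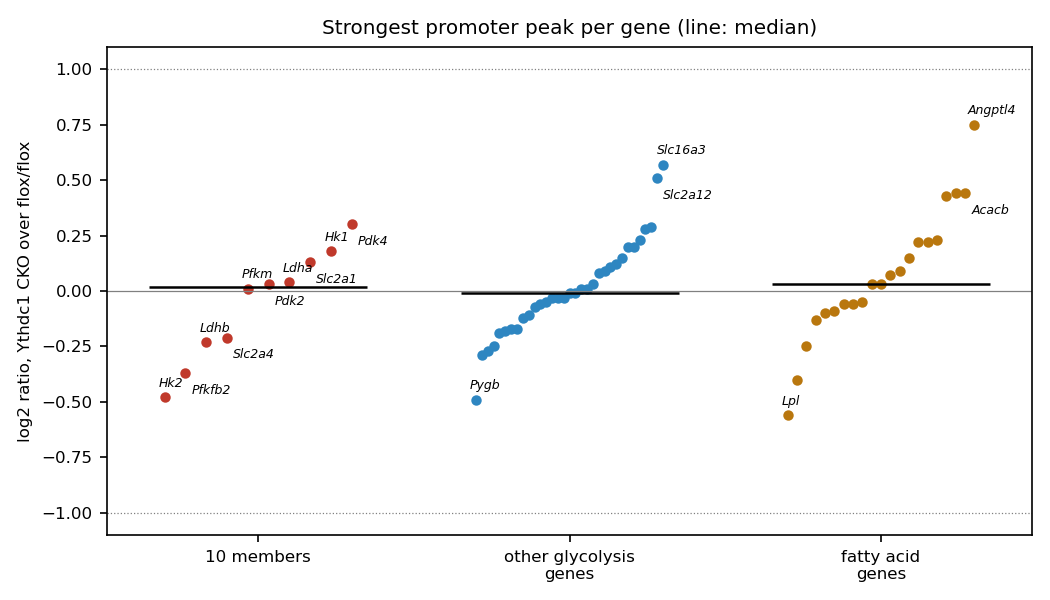
Log2 ratio of Ythdc1 CKO over Ythdc1flox/flox at the strongest promoter peak of each gene, ordered within each list, for the 10 members, 33 other glycolysis genes and 21 fatty acid genes; black lines are medians (0.02, -0.01 and 0.03) and dotted lines 2-fold. No promoter of the 3 lists passes 2-fold, and each list spreads to both sides of 0.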

How the data were processed

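ATAC-seq libraries of heart nuclei were analysed, 1 from Ythdc1 CKO and 1 from Ythdc1flox/flox mice, read as 150 bp pairs per the labels. BWA, MACS2 and the build GRCm38.p6 are named, with no versions, per the submitters' processing notes. How reads were filtered, duplicates and multi-mapping reads handled and Tn5 cuts shifted was not given in the sources used here. Whole-number counts, not normalized, stand in 1 merged peak table that the authors deposited. The authors' RPM values equal (count + 1) times 1 constant per library, 0.01822 in Ythdc1 CKO and 0.01965 in Ythdc1flox/flox. The authors' log2 fold change is computed from these RPM values and was not used. The authors' fold enrichment, a ratio, served only as a filter. Coordinates are as deposited.

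Counts were scaled to CPM over all peaks, and log2 ratios had 0.5 counts added, while ratios and intervals had none. A 2-fold difference is a rule of size, not a test. The median peak held 60 counts in Ythdc1 CKO and 65 in Ythdc1flox/flox. Intervals cover counting error only, and they treat each count as an independent molecule. Reads without molecular identifiers need not be independent molecules, so the intervals may be too narrow even for counting error. Symbols were placed where RefSeq and table spans overlapped by at least 0.5 of their union, and by at least 2 times the next candidate, or had both ends within 1 kb. The promoter value of a gene is its peak of highest summed count within 1 kb of a start. Named were all members with their promoter peak, their strongest other peak and each peak past 2-fold or with an interval off 1, then the 6 glycolysis and 4 fatty acid promoters of largest difference. Members and lists were chosen with earlier results of these data known. Scripts used Python 3.11.15, scipy 1.17.1 and edgeR 4.0.16 (for TMM factors only), and were tested on simulated data.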

Additional observations from a re-analysis of the deposited data

How the results depend on the processing

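The median log2 ratio of the 43 peaks, 0.04, ranged from -0.13 (RPM scale) to 0.11 (peaks called in both libraries). Peaks at least 2-fold different numbered 1 higher and 3 lower. No peak of either kind was left (0 and 0) among the 27 called in both libraries. Of all peaks called in both, just 0.851% were 2-fold higher and 1.02% lower. The 1.5-fold rule gave 6 and 8, with no share over all peaks computed to set beside them. Adding the 10 peaks of other identifiers inside the genes, chosen after seeing the data, gave 2 and 3. Over the other choices the counts were 1 higher and 2 to 4 lower. The median summed ratio of the 10 genes, -0.07 on the log2 scale, was -0.24 on the RPM scale and -0.25 as a mean over peaks. That mean weighs weak peaks like strong ones. The cause of the other shifts was not tested. Promoter medians on the RPM scale were -0.15 for the members, -0.18 for glycolysis and -0.14 for fatty acid genes. At single genes, the Pfkm sum went to a log2 ratio of 0.01 without its peak called in Ythdc1flox/flox alone. On the RPM scale Pdk4 had a summed log2 ratio of 0.23, against 0.40 as reported. Single ratios of weak peaks are limited by counts, with 20 in Ythdc1 CKO and 61 in Ythdc1flox/flox at the Hk1 peak of largest difference. No paired analysis was possible because each genotype has 1 library.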

Other observations

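Txnip, whose product restrains glucose uptake, was chosen after its values were seen. Its promoter peak held 279 counts in Ythdc1 CKO and 253 in Ythdc1flox/flox (ratio 1.15, 0.968 to 1.37). Another peak (chromosome 3, 96561951 to 96563063) lay 1897 bp from a different annotated start, and farther from the start under the promoter peak. It held 1134 counts in Ythdc1 CKO and 764 in Ythdc1flox/flox, a ratio of 1.55 (1.41 to 1.70), more counts than any member peak had. Over both peaks the ratio was 1.45 (1.34 to 1.57).

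Among the genes with summed values, also chosen after they were seen, Pygb had 760 counts in Ythdc1 CKO and 1099 in Ythdc1flox/flox over 5 peaks (0.722, 0.658 to 0.793), and Tbc1d4 had 589 in Ythdc1 CKO and 759 in Ythdc1flox/flox (0.811, 0.727 to 0.904). Angptl4 had 877 in Ythdc1 CKO and 617 in Ythdc1flox/flox over 2 peaks, both called in both libraries (1.48, 1.34 to 1.65), and Slc16a3 had 388 in Ythdc1 CKO and 285 in Ythdc1flox/flox (1.42, 1.22 to 1.66).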
